A study of Homo sapiens with 12 samples.

Results

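The data here are the RNA levels of the RUNX transcription factor family and its partner in sorted pancreatic adenocarcinoma cells, and 5 genes were chosen by symbol, *RUNX1*, *RUNX2*, *RUNX3*, *CBFB* and *RUNX1T1*, out of 23346 genes in the deposited table. All 5 were listed, and 4 of them passed the filter on low values (a mean of at least 0.1 RPKM, reads divided by gene length and library size, over the 12 samples), as did 16236 genes of the table. SW1990 and CFPAC-1 are established human pancreatic adenocarcinoma lines. Each was stained with GCTM-5, an antibody to a glycoprotein complex at the cell surface, and sorted into antigen positive and antigen negative cells, with 3 samples in each of the 4 groups. Neither line carried an engineered allele and no treatment beyond the stains used for sorting was named for any group. Cells of intermediate staining fell outside the gates, so that the groups are the ends of a range within a line. The labels name a peroxidase-coupled secondary antibody and the paper a fluorescent one, and the paper speaks of triplicate sorts without saying which positive and negative samples came from one sort. The p-values therefore measure the spread between these samples, which may be in part technical.

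RUNX proteins bind DNA through a conserved Runt domain and recognise a core that reads TGTGGT on one strand. They bind weakly alone, and CBFβ, the product of *CBFB*, does not touch DNA itself but stabilises the complex. Depending on cofactors, the same RUNX protein can activate or repress a gene. RUNX1 is needed for the formation of blood stem cells, RUNX2 for bone and the maturation of cartilage, and RUNX3 acts in T lymphocytes, sensory neurons and gut epithelium. *RUNX1T1*, also called ETO, encodes a corepressor that binds no DNA and is best known as the fusion partner of RUNX1 in a leukaemia translocation. RUNX genes are transcribed from a distal and a proximal promoter, and the resulting proteins differ at their amino ends.

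*RUNX2* and *RUNX3*, the 2 members lower in antigen positive cells of both lines, are shown here by the more upstream of the promoter windows that RefSeq lists for each (build GRCh38.p14, 300 bases around the annotated start, printed on the strand of the gene). Capitals mark ACCACA, which is the RUNX core TGTGGT read on the opposite strand. The *RUNX2* window lies at chr6:45328080-45328379 on the plus strand and the *RUNX3* window at chr1:24964961-24965260 on the minus strand.
RUNX2: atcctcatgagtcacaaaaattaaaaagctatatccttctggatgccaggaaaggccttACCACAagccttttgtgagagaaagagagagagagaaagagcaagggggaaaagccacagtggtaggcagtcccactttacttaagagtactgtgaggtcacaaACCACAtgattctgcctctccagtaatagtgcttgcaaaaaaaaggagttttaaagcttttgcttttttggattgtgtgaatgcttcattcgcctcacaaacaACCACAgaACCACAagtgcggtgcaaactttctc
RUNX3: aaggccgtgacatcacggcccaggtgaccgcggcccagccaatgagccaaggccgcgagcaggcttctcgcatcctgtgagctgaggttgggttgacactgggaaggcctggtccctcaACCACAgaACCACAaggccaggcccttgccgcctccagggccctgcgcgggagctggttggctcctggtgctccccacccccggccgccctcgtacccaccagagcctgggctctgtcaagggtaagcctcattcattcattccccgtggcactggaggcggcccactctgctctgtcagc

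The *RUNX2* window held 4 matches to the core, at positions -191, -87, 17 and 25 counted from the annotated start, and the *RUNX3* window held 2, at -131 and -123. In both windows a pair of matches stood 2 bases apart, as ACCACANNACCACA. The single core was found on either strand in 13.1% of 35114 promoter windows of the same length. The spaced pair was looked for because it was seen in these windows, and 4 of the 35114 windows held it (0.0114%). The other two belonged to *OR52N2* and *LOC105369321*, neither of which was tested. A second motif searched, the E-box CAGGTG on either strand, matched once in the *RUNX3* window, at position -230, and in 20.6% of all windows. The downstream windows of *RUNX2* and *RUNX3* and the one window listed for *RUNX1* held no match to either motif, and no window was matched to *CBFB* or *RUNX1T1*. *RUNX2* and *RUNX3* had 2 windows each and *RUNX1* had 1. Another *RUNX1* promoter was thus not searched, and the spaced pair cannot be called absent from that gene. These matches describe letters only. One value per gene was deposited, so that transcripts from the distal and proximal promoters cannot be told apart.

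The family members share coding sequence, which bears on whether reads could be assigned to the wrong gene. The longest run of identical bases between annotated transcripts was 29 bases for *RUNX1* and *RUNX2*, 41 bases for *RUNX1* and *RUNX3*, and 32 bases for *RUNX2* and *RUNX3*. These runs lie in the coding sequence (GRCh37, chr21:36259183-36259223 in *RUNX1* and chr1:25256121-25256161 in *RUNX3* for the longest) and are printed below.
RUNX1 and RUNX2: cgcactggcgctgcaacaagaccctgccc
RUNX1 and RUNX3: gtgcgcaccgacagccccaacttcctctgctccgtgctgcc
RUNX2 and RUNX3: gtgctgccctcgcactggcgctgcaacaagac
All 3 runs were shorter than the reads described in the study's methods. Only exact matches were searched, and an aligner may accept mismatches, so that assignment to the wrong gene was not tested. The gene *SUPT3H* overlaps *RUNX2* on the opposite strand and shares none of its exon bases, and it stood at 1.62 ± 0.259, 1.39 ± 0.349, 2.88 ± 0.549 and 2.92 ± 0.317 RPKM (SD, n = 3) in negative SW1990, positive SW1990, negative CFPAC-1 and positive CFPAC-1 cells. *MIR802*, within the span of *RUNX1*, was listed at 0 in all 12 samples.

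Library totals recovered from the values ranged from 9969697 to 26159330 reads, and positive CFPAC-1 replicate 3 was the shallowest. Both lines had the epithelial markers of their label, with the summed RPKM of *EPCAM*, *CDH1*, *KRT8*, *KRT18* and *KRT19* between 1357 and 1628 in negative SW1990 cells, 4014 and 4562 in positive SW1990 cells, 5222 and 6002 in negative CFPAC-1 cells, and 6400 and 7691 in positive CFPAC-1 cells. Most of this sum was keratin RNA. *EPCAM* and *CDH1* averaged 21.7 and 12.6 RPKM in negative and 176 and 102 RPKM in positive SW1990 cells. In CFPAC-1 they averaged 237 and 79.0 RPKM when negative and 227 and 98.3 RPKM when positive. *FUT3* encodes a fucosyltransferase involved in making the sialyl Lewis A glycan and served as a check of the sample labels. It rose in positive SW1990 cells from 1.13 to 29.3 RPKM (limma, adjusted p = 1.98e-06) and in positive CFPAC-1 cells from 0.457 to 4.46 RPKM (adjusted p = 0.000121). The study reports higher *FUT3* in positive cells from these same samples, so that it is not independent evidence. On the study's glycan array GCTM-5 did not bind sialyl Lewis A above the cut-off.

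**Figure D1:**
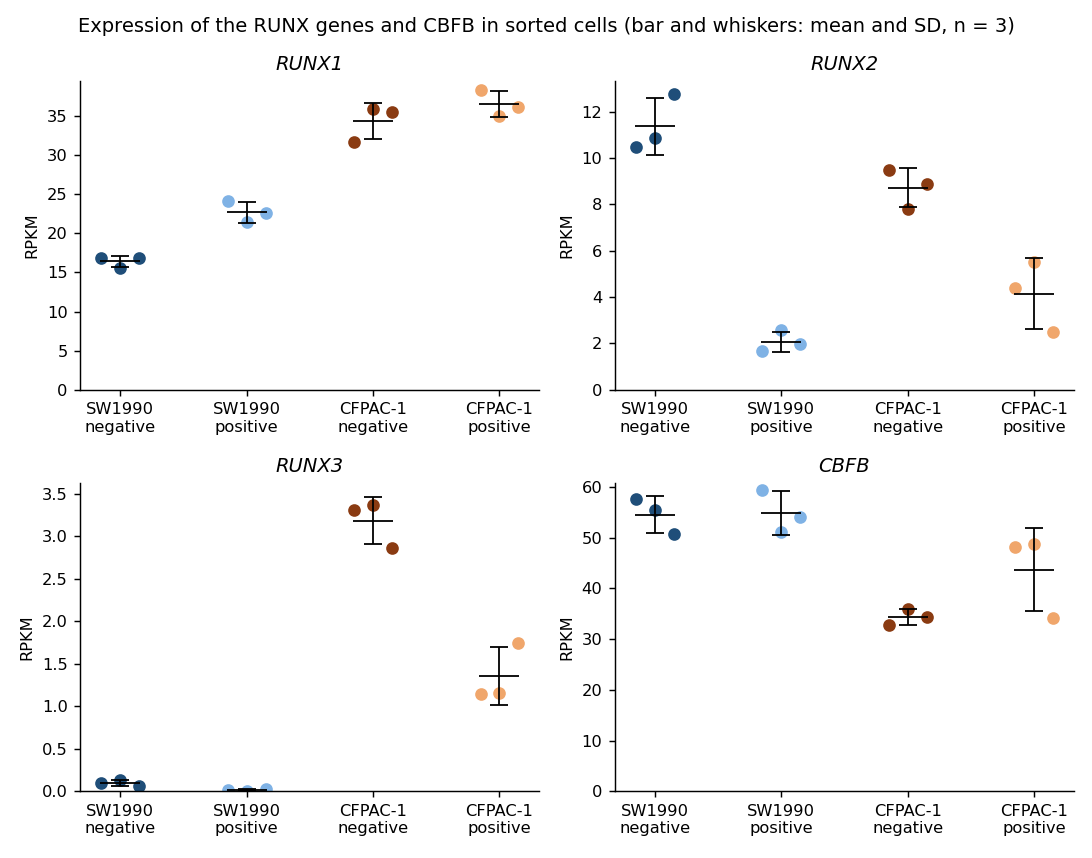
RPKM of *RUNX1*, *RUNX2*, *RUNX3* and *CBFB* in each of the 12 samples (points, 3 per group), with the mean (horizontal bar) and SD (whiskers) of each group, on linear axes that start at 0. *RUNX2* and *RUNX3* sit lower in positive than in negative cells of both lines, *RUNX1* is higher in positive SW1990 cells, and *CBFB* overlaps between positive and negative cells in both lines.

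Levels are given as RPKM, which divides by gene length, so that genes can be set side by side within a sample. In SW1990 cells, positive and negative, the order from high to low was *CBFB*, *RUNX1*, *RUNX2* and *RUNX3*, with no overlap between neighbours. In CFPAC-1 cells *CBFB* and *RUNX1* did not differ beyond their spread, with 34.4 ± 1.63 against 34.4 ± 2.33 RPKM when negative and 43.7 ± 8.22 against 36.5 ± 1.67 RPKM when positive (SD, n = 3), and *RUNX2* and *RUNX3* followed below. *RUNX1T1* was listed at 0 RPKM in all 12 samples. No read of it was found among the 231778320 reads of the 12 libraries, and the limit that a count of 0 allows (3 reads) was 0.115 to 0.301 RPM (reads scaled to library size alone) in a single library, counting error only.

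In SW1990, positive cells had more *RUNX1* and less *RUNX2* and *RUNX3* RNA than negative cells, and *CBFB* differed by less than the spread between samples. By limma at an adjusted p under 0.05, 3 of the 4 members tested changed, against 28.2% of the 16236 genes tested (11.3% higher and 16.9% lower). One of the 3, *RUNX3*, passed the filter only through CFPAC-1, since its SW1990 means of 0.0989 and 0.0151 RPKM lie below it. Among genes that reach 0.1 RPKM in SW1990 itself, an alternative added after the data were seen, 2 of 3 members were called and 29.3% of genes. Under the thresholds of the study, over 2-fold with p under 0.01 and read here as unadjusted, it was 1 member, *RUNX2*, and 12.1% of genes. The 2-fold cut was applied here on the log2(RPKM + 0.1) scale, so that this count is not the study's own test. On that scale *RUNX3* was 1.71-fold lower (limma, unadjusted p = 0.00708), against a ratio of mean RPKM of 6.55. In 43.3% of genes all samples of one group lay above all of the other.

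*RUNX1* stood at 16.9, 15.6 and 16.8 RPKM in the 3 negative samples and at 24.1, 21.4 and 22.7 RPKM in the 3 positive samples. Every positive sample lay above every negative one, and the spread within a group was small (SD 0.707 and 1.35 RPKM). The log2 fold change was 0.46 ± 0.08 (SE, on the log2(RPKM + 0.1) scale), a ratio of mean RPKM of 1.38 (limma, adjusted p = 0.00115).

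*RUNX2* was at 10.5, 10.9 and 12.8 RPKM in negative samples and at 1.69, 2.56 and 1.96 RPKM in positive samples. The groups were far apart, and 662 reads in all were behind the positive values. It fell by 2.42 ± 0.24 on the log2 scale (95% interval -2.95 to -1.89), so that the mean in negative cells was 5.50 times that in positive cells (limma, adjusted p = 1.55e-05). Across the 22 alternatives in which it was recomputed, its log2 fold change stayed between -2.57 and -2.02 and the call held.

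*RUNX3* was near the limit of detection in SW1990. It was at 0.102, 0.135 and 0.0593 RPKM in negative samples, from 30 reads in all, and at 0.0216, 0 and 0.0237 RPKM in positive samples, from 4 reads. The groups did not overlap, and the rate of reads was 6.59 times higher in negative cells (95% interval 2.32 to 25.8, exact binomial, counting error only). The fitted log2 fold change was -0.78 ± 0.24 (limma, adjusted p = 0.0295), a value that understates the ratio because the pseudocount of 0.1 is as large as the levels. That call was lost without negative replicate 1 (adjusted p = 0.0689), negative replicate 2 (0.0994), positive replicate 2 (0.0892) or positive replicate 3 (0.0505) of SW1990, and it held in 15 of 22 alternatives. It was also ended by a pseudocount of 1 (-0.11, adjusted p = 0.473), quantile normalization (-0.51, 0.172) and the replicate block (0.0774), whereas voom on the recovered reads gave a *RUNX3* log2 fold change of -2.55 (adjusted p = 0.0104).

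*CBFB* was at 57.7, 55.4 and 50.7 RPKM in negative samples and at 59.5, 51.1 and 54.1 RPKM in positive samples. The ranges overlapped throughout. Its log2 fold change was 0.01 ± 0.13 (95% interval -0.27 to 0.28, limma, adjusted p = 0.986) and turned to -0.071 after quantile normalization, with no call under any of the 22 alternatives.

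In CFPAC-1, *RUNX2* and *RUNX3* were lower in positive cells, and neither *RUNX1* nor *CBFB* passed the test. The 2 members called compare with 36.5% of genes tested (22.3% higher and 14.2% lower). Of all genes called in this comparison 61.1% were higher, a share that became 47.8% when each sample was centred on its median. Over 2-fold with an unadjusted p under 0.01, the same 2 members were called and 9.78% of genes, and 48.5% of genes had groups that did not overlap.

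*RUNX1* was at 31.7, 35.9 and 35.5 RPKM in negative samples and at 38.3, 35.1 and 36.2 RPKM in positive samples. The groups overlapped. The log2 fold change of 0.09 ± 0.08 (95% interval -0.09 to 0.27, limma, adjusted p = 0.424) became -0.010 when samples were centred on their medians and -0.019 after quantile normalization.

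*RUNX2* in CFPAC-1 was at 9.47, 7.81 and 8.89 RPKM in negative samples and at 4.37, 5.53 and 2.50 RPKM in positive samples. The positive samples were all lower and varied more (coefficient of variation 36.9%, against 9.70% in negative cells), with the lowest in the shallowest library. It fell by 1.12 ± 0.24 on the log2 scale (95% interval -1.66 to -0.59), and the mean in negative cells was 2.11 times that in positive cells (limma, adjusted p = 0.00409). Without positive replicate 3 the log2 fold change of *RUNX2* was -0.81 and still called.

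*RUNX3* was at 3.31, 3.37 and 2.86 RPKM in negative samples, from 930 reads, and at 1.15, 1.16 and 1.75 RPKM in positive samples, from 330 reads. No positive sample reached the lowest negative one. It fell by 1.20 ± 0.24 on the log2 scale, with a mean 2.35 times higher in negative cells (limma, adjusted p = 0.00257), and the call was lost only at a pseudocount of 0.01 (adjusted p = 0.0643) among 22 alternatives.

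*CBFB* was at 32.8, 36.0 and 34.3 RPKM in negative samples and at 48.2, 48.7 and 34.3 RPKM in positive samples. Positive replicates 1 and 2 stood above all negative samples, and replicate 3, the shallowest library, stood among them. The log2 fold change of 0.33 ± 0.13 missed the threshold (limma, adjusted p = 0.0597). Without positive replicate 3 it was 0.50 (adjusted p = 0.00143), and by voom on the recovered reads 0.34 (adjusted p = 0.0400). The *CBFB* difference in this line was called in 2 of 22 alternatives, these ones.

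The study names *RUNX2* and *RUNX3* for antigen negative cells from these same samples, so that their lower level in positive cells is not independent evidence of that direction.

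**Figure D2:**
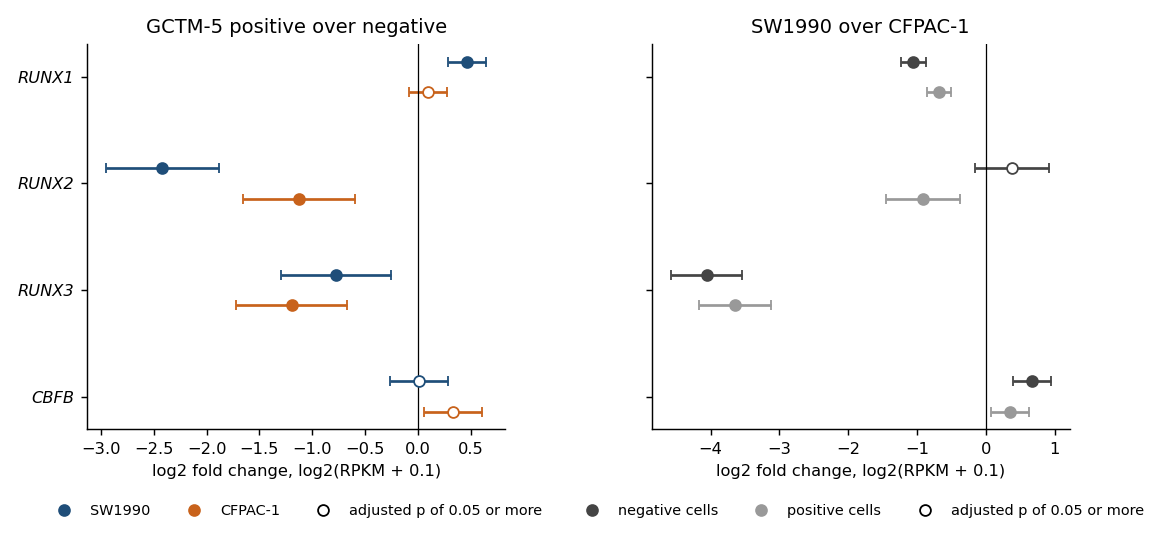
Log2 fold changes of the 4 members tested, on the log2(RPKM + 0.1) scale, for positive over negative cells in each line (left) and for SW1990 over CFPAC-1 cells in each sorted population (right). Points are limma estimates, bars are 95% intervals, and open points did not pass an adjusted p of 0.05. The decrease of *RUNX2* is larger in SW1990 than in CFPAC-1, and *RUNX3* is far lower in SW1990 than in CFPAC-1 in both populations.

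Whether the change with the antigen differed between the lines was tested as a contrast of its own, in which 26.9% of genes were called (9.16% higher and 17.8% lower in SW1990 than in CFPAC-1). The median over all genes was -0.15 in this contrast, and the share of calls that were higher went from 34.0% to 47.0% after quantile normalization. Over 2-fold with an unadjusted p under 0.01 the calls were 1 member, *RUNX2*, and 14.2% of genes. For *RUNX2* the SW1990 change minus the CFPAC-1 change was -1.29 ± 0.34 (SE, log2 scale, limma, adjusted p = 0.0161), and -1.14 after centring each sample on its median. It was called in all 21 alternatives. The *RUNX1* change was higher in SW1990 by 0.37 ± 0.12 (adjusted p = 0.0331), and by 0.52 after centring. For *RUNX1* the call was lost without negative replicate 2 (adjusted p = 0.0747), positive replicate 1 (0.0660) or positive replicate 3 (0.0676) of SW1990, or without negative replicate 2 (0.0842), negative replicate 3 (0.0824) or positive replicate 2 (0.0620) of CFPAC-1, with the replicate block (0.0640) and without the trend (0.0582), and it held in 13 of 21 alternatives. For *RUNX3* the difference between the changes was 0.42 ± 0.34 (95% interval -0.32 to 1.16, adjusted p = 0.393). It was 0.72 at a pseudocount of 1 (adjusted p = 0.00332) and -0.99 at a pseudocount of 0.01 (0.324), so that for *RUNX3* neither a difference nor its direction was settled. For *CBFB* it was -0.32 ± 0.18 (95% interval -0.71 to 0.07, adjusted p = 0.208), and -0.49 without positive CFPAC-1 replicate 3 (adjusted p = 0.00880).

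Levels were also compared between the lines at a fixed antigen state. In negative cells 3 of 4 members differed between lines, and in positive cells 4 of 4, where 68.9% and 62.3% of all genes tested were called. In negative cells 40.7% of genes were higher and 28.2% lower in SW1990, with a median of 0.19 (log2, SW1990 over CFPAC-1) over all genes, and in positive cells 32.9% were higher and 29.3% lower. Over 2-fold with an unadjusted p under 0.01, 2 members (*RUNX1* and *RUNX3*) and 36.9% of genes were called in negative cells, and 1 member (*RUNX3*) and 28.5% of genes in positive cells. *RUNX3* had the largest contrast. It is counted among the members called though it passed the filter only through CFPAC-1, so that a difference between the lines was favoured in advance. Its read rate was 31.1 times higher in CFPAC-1 than in SW1990 in negative cells (95% interval 21.7 to 46.4, exact binomial, counting error only), with 30 reads in SW1990. In positive cells it was 81.3 times higher (31.4 to 300.1), with 4 reads in SW1990. The limma adjusted p values were 2.78e-08 and 1.04e-07. *RUNX1* was also lower in SW1990, with log2 fold changes of -1.06 ± 0.08 in negative cells (adjusted p = 2.88e-07) and -0.68 ± 0.08 in positive cells (adjusted p = 1.73e-05). *CBFB* went the other way, with a log2 fold change of 0.66 ± 0.13 in negative cells (adjusted p = 0.000506, and 0.48 after centring). In positive cells its 0.34 ± 0.13 (adjusted p = 0.0323) was lost without SW1990 positive replicate 1 (0.108), SW1990 positive replicate 3 (0.0649) or CFPAC-1 positive replicate 3 (0.0936), and was called in 15 of 22 alternatives. *RUNX2* in negative cells was higher in all 3 SW1990 samples than in any CFPAC-1 sample, but its log2 fold change of 0.38 ± 0.24 (95% interval -0.15 to 0.91) missed the threshold (adjusted p = 0.186) and passed it only when these 2 groups were fitted alone (0.0203). Such a separation between lines, in either direction, was seen in 75.2% of genes in negative cells and 63.9% in positive cells. In positive cells the log2 fold change of *RUNX2* was -0.91 ± 0.24 (adjusted p = 0.00603), though the highest SW1990 sample, 2.56 RPKM, lay just above the lowest CFPAC-1 sample, 2.50 RPKM.

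The make-up of RUNX family RNA was computed as the share of each gene in the summed RPKM of *RUNX1*, *RUNX2* and *RUNX3*, a measure that does not move when a whole library is rescaled. *RUNX1* took the largest share in every sample. In SW1990 its share was 59.0% ± 2.35 in negative cells and 91.5% ± 2.05 in positive cells (SD, n = 3), and that of *RUNX2* was 40.7% ± 2.43 and 8.39% ± 2.09. In CFPAC-1 the *RUNX1* share was 74.2% ± 2.63 in negative cells and 87.0% ± 2.79 in positive cells, the *RUNX2* share 18.9% ± 2.36 and 9.80% ± 3.53, and the *RUNX3* share 6.88% ± 0.732 and 3.24% ± 0.940. For all 3 genes in both lines the positive and negative samples did not overlap, with an exact permutation p of 0.1 (2-sided), which is the smallest that 3 samples against 3 allow. The RPKM of single genes separated in this way in 43.3% of genes tested in SW1990 and 48.5% in CFPAC-1. The shares are parts of the same sum, so that they are not independent results. In CFPAC-1 the *RUNX1* share rose though *RUNX1* RNA was not called (limma, adjusted p = 0.424). The *RUNX3* share in SW1990 rests on 30 and 4 reads. The ratio of *RUNX1* to *RUNX2* RPKM went from 1.45 ± 0.146 to 11.4 ± 2.94 in SW1990 and from 3.98 ± 0.627 to 9.85 ± 4.16 in CFPAC-1. The *RUNX1* and *RUNX2* shares of negative cells did not overlap between the lines (exact permutation p = 0.1), whereas those of positive cells did (exact permutation p = 0.2 for *RUNX1* and 0.7 for *RUNX2*). Between the lines the RPKM of single genes did not overlap in 75.2% of genes in negative cells and 63.9% in positive cells.

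**Figure D3:**
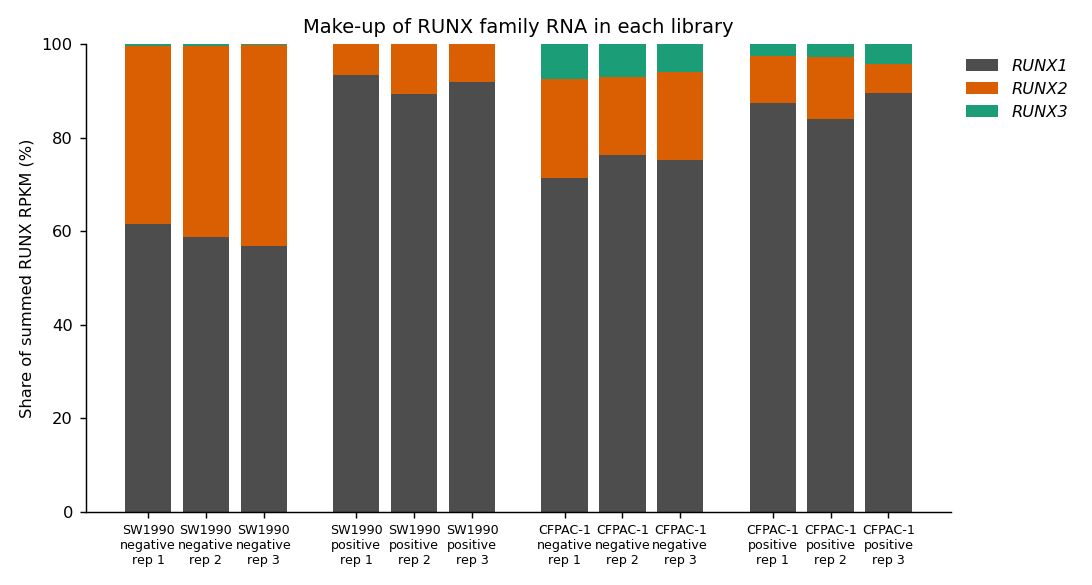
Share (%) of *RUNX1*, *RUNX2* and *RUNX3* in the summed RPKM of the 3 genes, one stacked bar per library, with 3 libraries in each of the 4 groups. *RUNX2* makes up 38.2% to 43.0% in negative SW1990 cells and 6.56% to 10.7% in positive SW1990 cells, and *RUNX3* is visible as a band only in CFPAC-1 cells, at 2.61% to 7.44%.

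Summed over the 3 genes, RUNX RNA came to 27.9 ± 1.57 RPKM in SW1990 negative cells, 24.8 ± 0.942 RPKM in SW1990 positive cells, 46.3 ± 1.57 RPKM in CFPAC-1 negative cells and 42.0 ± 1.74 RPKM in CFPAC-1 positive cells. Set over *CBFB*, the partner that RUNX proteins share, the ratio was 0.514 ± 0.0620 and 0.453 ± 0.0177 in negative and positive SW1990 cells, and 1.35 ± 0.0368 and 0.982 ± 0.173 in CFPAC-1. Both quantities were lower in all positive than in all negative samples of each line (exact permutation p = 0.1, the smallest possible). Single genes separated, in either direction, in 43.3% of genes tested in SW1990 and 48.5% in CFPAC-1. These are ratios of RNA and not of protein.

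Genes that act with RUNX proteins, on them or after them were taken as 7 lists of 81 genes, of which 80 had a row in the table and 60 were tested. In SW1990, 6 rose and 18 fell in positive cells (40% called, against 28.2% of all genes). In CFPAC-1, 17 rose and 10 fell (45.0%, against 36.5%). Among all genes called, 40.0% were higher in positive SW1990 cells and 61.1% in positive CFPAC-1 cells. Those shares became 46.5% and 47.8% when each sample was centred on its median. Before centring, calls over all genes thus leaned the same way in each line, and direction alone does not set these lists apart. Over 2-fold with an unadjusted p under 0.01, 7 of the 60 were called in each line (11.7%, against 12.1% of all genes in SW1990 and 9.78% in CFPAC-1). The lists differed in the direction of their calls.

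Corepressors, which RUNX proteins recruit to silence genes, had 12 members tested, with 2 higher and 2 lower in positive SW1990 cells (median log2 fold change 0.01) and 5 higher and 3 lower in CFPAC-1 (median 0.25). That is 33.3% called in SW1990 and 66.7% in CFPAC-1, against 28.2% and 36.5% of all genes. *TLE4*, one of the Groucho family that binds the end of RUNX proteins, fell in SW1990 from 6.85 ± 0.567 to 1.11 ± 0.157 RPKM (limma, adjusted p = 3.56e-07), whereas CFPAC-1 cells had 1.29 ± 0.0338 RPKM when negative and 1.58 ± 0.167 RPKM when positive. *TLE1*, of the same family, rose in CFPAC-1 from 7.49 ± 1.63 to 14.8 ± 1.44 RPKM (adjusted p = 0.000639). The histone deacetylase gene *HDAC1* rose in SW1990 from 22.8 ± 1.16 to 33.9 ± 3.28 RPKM (adjusted p = 0.00161), and *SUV39H1*, which encodes a histone H3 methyltransferase, rose in CFPAC-1 from 10.1 ± 1.37 to 19.6 ± 2.09 RPKM (adjusted p = 0.000284). It was also called higher in SW1990, at 9.09 ± 1.15 against 12.6 ± 0.898 RPKM (adjusted p = 0.0184), which was lost without negative replicate 2 (0.0508), negative replicate 3 (0.0798) or positive replicate 1 (0.0682).

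Coactivators and modifying enzymes had 11 members tested, with 1 higher and 4 lower in positive SW1990 cells (median 0.05) and 1 higher and 1 lower in CFPAC-1 (median -0.00). That is 45.5% called in SW1990 and 18.2% in CFPAC-1, against 28.2% and 36.5% of all genes. *PRMT6*, an arginine methyltransferase, rose in both lines. SW1990 went from 13.3 ± 0.229 to 18.3 ± 1.34 RPKM (limma, adjusted p = 0.00556) and CFPAC-1 from 11.7 ± 0.483 to 25.2 ± 3.55 RPKM (adjusted p = 3.04e-05). The acetyltransferase gene *KAT6B* fell in SW1990 from 5.32 ± 0.322 to 3.60 ± 0.384 RPKM (adjusted p = 0.0132), a call lost without positive replicate 3 (0.0529). *HIPK2*, whose kinase phosphorylates RUNX1 complexes, fell in CFPAC-1 from 33.9 ± 3.03 to 22.5 ± 4.32 RPKM (adjusted p = 0.00615). It was called lower in SW1990 too, at 14.4 ± 1.97 against 9.99 ± 0.670 RPKM (adjusted p = 0.0161), which was lost without negative replicate 3 (0.0737) or positive replicate 3 (0.0608).

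SMAD proteins carry signals of TGF-β and bone morphogenetic proteins and bind RUNX proteins. Of 5 tested, 2 fell in SW1990 (median -0.22) and 1 in CFPAC-1 (median -0.06), and none rose. Over all genes 16.9% fell and 11.3% rose in SW1990, and 14.2% fell and 22.3% rose in CFPAC-1. *SMAD3* fell in both lines. SW1990 went from 56.0 ± 7.27 to 37.5 ± 3.06 RPKM (limma, adjusted p = 0.00151) and CFPAC-1 from 189.6 ± 10.8 to 112 ± 6.52 RPKM (adjusted p = 0.000280). *SMAD1* fell in SW1990 from 10.7 ± 1.22 to 7.64 ± 0.403 RPKM (adjusted p = 0.0196). That call was lost without negative replicate 2 (0.0780), positive replicate 1 (0.0535) or positive replicate 3 (0.0668), and after median centring (0.0505). *SMAD4*, named after its values were seen, was listed at 0 in all 6 CFPAC-1 samples and had 6.10 ± 0.301 RPKM in SW1990 negative and 5.23 ± 0.0417 RPKM in SW1990 positive cells. It passed the filter only through SW1990, and the median of the other 4 genes in CFPAC-1 was -0.17.

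Negative regulators, which include ubiquitin ligases that mark RUNX proteins for destruction and proteins that block their binding, had 10 of 12 members tested. Of these, 2 rose and 3 fell in SW1990 (median 0.06), and 5 rose and 2 fell in CFPAC-1 (median 0.38). Over all genes 11.3% rose and 16.9% fell in SW1990, and 22.3% rose and 14.2% fell in CFPAC-1. Of the 10, 9 reached a mean of 0.1 RPKM in SW1990 itself, with a median of 0.09 there. *HEY1*, a Notch-induced repressor that binds RUNX2, fell in SW1990 from 7.02 ± 0.265 to 0.535 ± 0.449 RPKM (limma, adjusted p = 2.95e-05) and was at 0.541 ± 0.142 and 0.490 ± 0.181 RPKM in CFPAC-1. The ligase gene *NEDD4* fell in SW1990 from 11.4 ± 0.842 to 4.24 ± 1.01 RPKM (adjusted p = 4.29e-05). In CFPAC-1 *NEDD4* was called in the other direction, at 7.60 ± 1.00 against 10.6 ± 0.875 RPKM (adjusted p = 0.0367). That call was lost without negative replicate 2 (0.131), negative replicate 3 (0.0948), positive replicate 1 (0.117) or positive replicate 2 (0.0598), and after median centring (0.0823) or quantile normalization (0.0921). In CFPAC-1, *MDM2* rose from 8.79 ± 0.578 to 14.1 ± 3.02 RPKM (adjusted p = 0.00562) and *FBXW7* fell from 13.5 ± 0.581 to 7.52 ± 1.25 RPKM (adjusted p = 0.000716), and both encode ubiquitin ligases or parts of them.

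Skeletal targets of RUNX2 had 8 of 17 members tested, because most were at or near 0, and 2 (*IBSP* and *DMP1*) were listed at 0 in all samples. In SW1990 none rose and 4 fell (median -1.05), and in CFPAC-1 3 rose and 2 fell (median 0.45). Over all genes 11.3% rose and 16.9% fell in SW1990, and 22.3% rose and 14.2% fell in CFPAC-1. *ALPL* and *TNFSF11* were at 0 in all SW1990 samples and passed the filter only through CFPAC-1, and the median of the other 6 in SW1990 was -1.31. The members that moved also have roles outside bone. *SPP1*, which encodes the secreted phosphoprotein osteopontin, fell in SW1990 from 44.6 ± 16.5 to 2.98 ± 1.27 RPKM (limma, adjusted p = 6.61e-06) and in CFPAC-1 from 147 ± 10.4 to 59.3 ± 19.1 RPKM (adjusted p = 0.0104). *TNFRSF11B*, which encodes the decoy receptor osteoprotegerin, fell in SW1990 from 11.2 ± 2.93 to 2.75 ± 0.543 RPKM (adjusted p = 5.37e-05) and rose in CFPAC-1 from 2.15 ± 0.362 to 4.22 ± 0.908 RPKM (adjusted p = 0.00858). Its ligand gene *TNFSF11* was listed at 0 in SW1990 and rose in CFPAC-1 from 2.21 ± 0.0556 to 3.70 ± 0.247 RPKM (adjusted p = 0.00970), a call lost at a pseudocount of 0.01 (0.111). *MMP13*, a collagenase gene, went from 4.40 ± 0.897 to 1.83 ± 0.539 RPKM in SW1990 (adjusted p = 0.0157), and CFPAC-1 went from 0.726 ± 0.158 to 0.346 ± 0.216 RPKM (adjusted p = 0.0371). Those calls were fragile. In SW1990 the *MMP13* call was lost without negative replicate 2, positive replicate 1 or positive replicate 3 (adjusted p 0.0555 to 0.0613), and in CFPAC-1 without any one of the negative replicates, positive replicate 2 or 3, or SW1990 negative replicate 3 (0.0501 to 0.125). The study names *SPP1* and *MMP13* beside *RUNX2* on these samples, so that they are not independent of it here.

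Blood and lymphoid targets of RUNX1 and RUNX3 had 8 of 16 members tested, with 1 higher and 2 lower in positive SW1990 cells (median -0.01) and 1 lower in CFPAC-1 (median 0.14). Over all genes 28.2% were called in SW1990 and 36.5% in CFPAC-1, and the count in CFPAC-1 lies below that share. *CD4*, a T cell coreceptor gene that RUNX3 silences in killer T cells, fell in SW1990 from 3.15 ± 0.536 to 1.41 ± 0.140 RPKM (limma, adjusted p = 0.00198). That call was lost at a pseudocount of 0.01 (0.0784). *NFE2*, which encodes a factor of red cell and platelet precursors, fell in CFPAC-1 from 10.2 ± 0.231 to 3.73 ± 0.980 RPKM (adjusted p = 0.0104). The cytokine gene *CSF2* averaged 3.03 RPKM in negative and 1.46 RPKM in positive SW1990 cells (log2 fold change -1.02 ± 0.345, adjusted p = 0.0444), a call lost without any one of the negative SW1990 replicates, positive SW1990 replicate 2 or 3, negative CFPAC-1 replicate 2 or positive CFPAC-1 replicate 1 (adjusted p 0.0553 to 0.148). It was also lost at a pseudocount of 0.01 (0.0682), without the filter (0.0606), after quantile normalization (0.0952) and with these 2 groups fitted alone (0.0527).

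Epithelial genes linked to RUNX3 had 6 members tested, with 1 lower in positive SW1990 cells (median -0.30) and 3 higher in CFPAC-1 (median 0.32). That is 16.7% called in SW1990 and 50% in CFPAC-1, against 28.2% and 36.5% of all genes. *BCL2L11*, which encodes the cell death protein BIM, fell in SW1990 from 8.80 ± 0.610 to 5.84 ± 0.399 RPKM (limma, adjusted p = 0.00805). In CFPAC-1 the tight junction gene *CLDN1* rose from 2.44 ± 1.38 to 11.4 ± 3.52 RPKM (adjusted p = 0.000318), and *BIRC5*, which encodes the division protein survivin, rose from 26.7 ± 4.66 to 54.3 ± 9.80 RPKM (adjusted p = 0.000521).

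**Figure D4:**
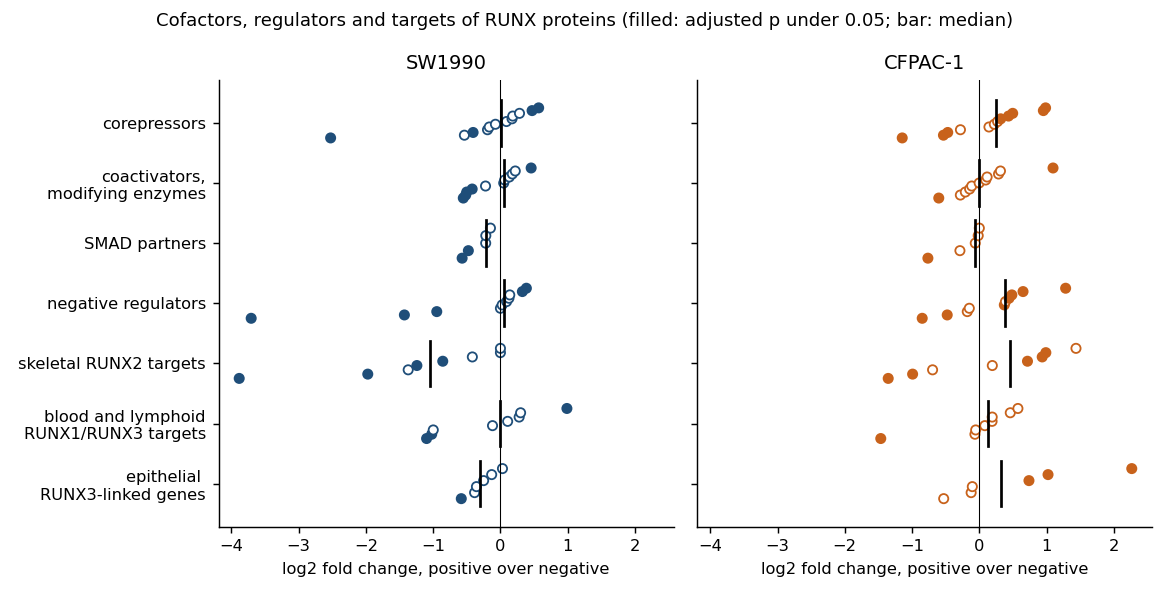
Log2 fold change of positive over negative cells for the 60 tested genes of the 7 lists, with SW1990 on the left and CFPAC-1 on the right, one point per gene. Filled points passed an adjusted p of 0.05 (limma) and black bars are list medians. The skeletal list has its median at -1.05 in SW1990 and 0.45 in CFPAC-1, and *SPP1*, *HEY1* and *TLE4* lie farthest to the left in SW1990.

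Markers of other cell types were read beside these values, since in sorted bulk samples fewer cells of a type and less RNA per cell cannot be told apart. The summed RPKM of 6 blood markers was 2.04 to 3.05 in negative and 0.322 to 0.536 in positive SW1990 cells, and 8.73 to 9.57 and 2.64 to 4.38 in CFPAC-1, so that it moved in the same direction as *RUNX2* and *RUNX3*. Nearly all of it came from *CD14* and *CD34* in SW1990 and from *CD14* alone in CFPAC-1, where *CD34* was at 0. *PTPRC*, which nearly all white blood cells express, was at most 0.0163 RPKM as a group mean. The summed RPKM of 6 fibroblast markers, mostly *LUM*, was 9.16 to 19.1 in negative and 2.04 to 3.16 in positive SW1990 cells, and 0.521 to 0.878 and 0.385 to 1.01 in CFPAC-1. *PDGFRB* had a mean of 1.76 RPKM in negative SW1990 cells and at most 0.0554 RPKM in the other groups. *DCN* and *DPT* were at 0 in 3 of the 4 groups and *THY1* in all. The summed RPKM of 4 osteoblast markers was 2.26 to 3.16 and 1.51 to 2.81 in SW1990 and 2.73 to 3.68 and 0.977 to 2.94 in CFPAC-1, nearly all of it *BGLAP*. Epithelial markers moved opposite to *RUNX2* in SW1990, where all 5 were called higher, against 11.3% of all genes. In CFPAC-1, 2 of the 5 (*KRT8* and *KRT18*) were called higher, against 22.3% of all genes. Not called there were *CDH1*, *EPCAM* and *KRT19*, with log2 fold changes of 0.31, -0.08 and -0.14. The part of any of these cell states in the *RUNX2* and *RUNX3* results was not tested.

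Genes most like each member were ranked by Pearson's r of log2(RPKM + 0.1) over the 12 samples, among 13267 genes with a mean of at least 1 RPKM. The 12 points share 2 lines and 2 sorted populations, so that r mainly orders group means, and it is given as a description. For *RUNX1* the closest were *LCK* (r = 0.996), *FRRS1* (0.992) and *DSG2* (0.990), and the most opposite was *C8orf4* (-0.995). For *RUNX2* they were *PRAF2* (0.972), *SUFU* (0.966) and *PLSCR4* (0.961), with *DIAPH1* (-0.983) opposite. For *RUNX3* they included *LOC728463* (0.993) and *CD47* (0.991), with *UNC119* (-0.995) opposite. For *CBFB* they were *EIF1AX* (0.986), *PBRM1* (0.980) and *DEK* (0.975), with *METTL19* (-0.980) opposite. Among the members themselves, r was 0.83 between *RUNX1* and *RUNX3*, -0.88 between *CBFB* and *RUNX3*, -0.71 between *RUNX1* and *CBFB*, and -0.22 to 0.31 between *RUNX2* and each of the others.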

How the data were processed

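RNA-seq was carried out on sorted SW1990 and CFPAC-1 cells, with 12 samples in 4 groups. The authors aligned reads to hg19 (GRCh37) and the deposited values are their RPKM from QuasR. The annotation, strand setting and treatment of multiply matching reads are not given in the sources used here. The library kit was SureSelect strand-specific per the labels and TruSeq in the paper.

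Samples were grouped by line and antigen as labelled. log2(RPKM + 0.1) was fitted with limma 3.58.1 in R 4.3.3 over genes whose mean reached 0.1 RPKM, with 4 group means, eBayes with a trend, 2-sided tests and Benjamini-Hochberg adjustment over all 16236 genes. A call is an adjusted p under 0.05. The paper names TCC, which was not used. Alternatives were pseudocounts of 0.01 and 1, other filters, median centring, quantile normalization, 2 groups per fit, no trend, voom, a replicate block, calls at over 2-fold with p under 0.01, and each sample left out. Counting only genes that reach 0.1 RPKM in the line compared was added after the data were seen. Shares and ratios were compared by exact permutation (scipy 1.17.1). The fit and the read recovery were tested on simulated data.

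Library totals and whole reads were recovered from the RPKM values with the lengths of single-exon genes (GENCODE 44 on GRCh37, 59 to 79 genes at 1 read per library), taking each gene's length as the smallest that gave whole reads within 0.001. Such a length was found for all 19654 genes above 0, which is what the search looks for and no check of the reads. Where the reads of a gene share a common factor, the smallest length could understate them. Intervals and floors cover counting error only. Promoter windows came from RefSeq (GRCh38.p14) and shared runs from GENCODE transcripts.

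The members, the lists and the motifs were chosen with earlier results of these data known. Genes named are the members, the 2 genes per list with the smallest adjusted p among those called in each line, *SPP1* and *MMP13*, the 3 most and the 1 least correlated genes per member, overlapping genes and *FUT3*, and 1 gene under this rule is not reported here. Deviations from the group means had r of 0.18, 0.02 and 0.12 between same-numbered SW1990 samples, against -0.25 to 0.16 between differently numbered ones. In CFPAC-1 same-numbered samples had r of -0.06 to 0.001. Whether numbers mark a shared sort was not settled by this, and they were not used to pair samples in the main fit. Tables and plots were made in Python 3.11.15 (matplotlib 3.10.9, numba 0.67.0, numpy 2.4.6 and pandas 2.3.3).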

Additional observations from a re-analysis of the deposited data

Results flagged for a closer look

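The change between positive and negative cells differed between the 2 lines (limma, adjusted p under 0.05 for the difference itself) for *RUNX1*, by 0.37 on the log2 scale (SW1990 change minus CFPAC-1 change, held in 13 of 21 alternatives), and for *RUNX2*, by -1.29. Among the corepressors and modifying enzymes the difference was -2.80 for *TLE4*, -0.81 for *TLE1* and -0.64 for *PRMT6*, which rose in both lines. Among the negative regulators it was -3.56 for *HEY1*, -1.91 for *NEDD4* and 0.87 for *FBXW7*. Of the target lists, *SPP1* differed by -2.53, *TNFRSF11B*, which fell in SW1990 and rose in CFPAC-1, by -2.91, *CD4* by -1.03, *CLDN1* by -2.65 and *BIRC5* by -0.99. *CD4* was at or near 0 in CFPAC-1 and passed the filter only through SW1990, so that its difference restates its SW1990 change. *FUT3*, the check of the sample labels, differed by 1.66. Over all genes tested 26.9% differed between the lines in this way. No group had 4 or more samples, so that no single sample was examined for its distance from the rest of its group.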

How the results depend on the processing

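Over 25 settings, 1530 of 1660 recomputed values kept their direction and their side of the threshold or stayed close to their first value, 65 lost a call, 5 gained one, 7 changed sign and 53 counts moved by over 1.5 times. Requiring over 2-fold on the log2(RPKM + 0.1) scale with an unadjusted p under 0.01 left 1 member called in SW1990 (12.1% of all genes). It also left 1 in the difference between lines (14.2%) and 1 between lines in positive cells (28.5%). Of the list genes it left 7 in SW1990 and 7 in CFPAC-1 (11.7% of 60 in each, against 12.1% and 9.78% of all genes). One member was called in CFPAC-1 at a pseudocount of 0.01, and 1 in the difference between lines without the trend. The replicate block also left 1 there, losing *RUNX1* (adjusted p = 0.0640), and lost *RUNX3* in SW1990 (0.0774). Whether same-numbered samples came from a shared sort was not settled. Leaving out single libraries left 1 to 3 members called in the difference. *CBFB* in SW1990 was -0.071 after quantile normalization and -0.052 to 0.058 with a library left out. *RUNX1* in CFPAC-1 was -0.010 after median centring and -0.019 after quantile normalization. The *RUNX3* difference was -0.99 at a pseudocount of 0.01 and -1.22 with voom. The cause was not tested for any of these. Depth limits *RUNX3* in SW1990, where 30 reads in negative and 4 in positive cells carry the comparison.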
